A study of Mus musculus with 8 samples.

Results

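The miR-29 family comprises the mature miRNAs of 4 mouse hairpins, Mir29a, Mir29b-1, Mir29b-2 and Mir29c. Its members were taken by name from the array annotation: the 3p arms mmu-miR-29a-3p, mmu-miR-29b-3p and mmu-miR-29c-3p, and the 5p arms mmu-miR-29a-5p, mmu-miR-29b-1-5p, mmu-miR-29b-2-5p and mmu-miR-29c-5p, written without mmu (mouse) from here on. All 7 were found among the 1881 mouse miRNAs on the array. A miRNA hairpin gives rise to 2 arms, of which one usually enters the silencing complex as the guide while the other is mostly degraded. In this family the guide is the 3p arm. It pairs through its seed, bases 2 to 8, with messenger RNAs of the extracellular matrix, among them those of fibrillar and basement membrane collagens, fibrillins and elastin, and is therefore known as an antifibrotic miRNA family of kidney, heart and liver. TGF-beta signalling through Smad3 lowers it in tubular cells. Messenger RNAs, collagens included, were not analysed here.

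The kidneys compared came from male C57BL/6-Ins2Akita/J mice (Akita) and from male C57BL/6J controls whose titles read Mock. The Akita allele of the insulin gene Ins2 encodes a proinsulin that misfolds in pancreatic beta cells and causes diabetes in the whole animal; it is not a change made in the kidney. The sources used here do not say whether the controls received a mock treatment. Both groups have a labelled age of 36, without a unit. Whole-kidney RNA of 4 samples per group was labelled with Cy3 and read on 8 one-colour arrays of a single slide, with 100 ng of RNA per labelling. Control arrays filled one row of that slide and Akita arrays the other, and the group and the slide row cannot be told apart. No label states that each sample was a separate mouse, and the p-values measure only the spread between these samples, which may be technical.

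The 3p arms are shown first, because their shared seed defines the family. RefSeq lists the mature sequences on GRCm38.p6, and all 7 names were matched there. Capitals mark the seed.
miR-29a-3p: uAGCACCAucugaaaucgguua
miR-29b-3p: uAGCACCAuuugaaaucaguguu
miR-29c-3p: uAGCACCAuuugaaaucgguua
The 3 guides carry the seed AGCACCA, and of 1679 mature miRNA names in the RefSeq table no other carried it. MiR-29a-3p and miR-29c-3p differed by 1 substitution, C10U, counted from the 5′ end with the base of miR-29a-3p first. MiR-29b-3p differed from miR-29a-3p at 4 positions (C10U, G18A, U21G and A22U) and was 1 base longer. The differences therefore lie outside the seed, in the middle and at the 3′ end.

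The 5p arms have seeds of their own and are shown because their detection differed.
miR-29c-5p: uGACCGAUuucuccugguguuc
miR-29a-5p: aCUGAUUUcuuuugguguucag
miR-29b-1-5p: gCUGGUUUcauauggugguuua
miR-29b-2-5p: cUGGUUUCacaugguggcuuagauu
No 2 of these 4 seeds were the same. Outside the family, only the seed of miR-29b-2-5p recurred, in miR-6338.

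The 4 hairpins lie in 2 pairs. Mir29a (chr6:31062660-31062747) and Mir29b-1 (chr6:31063023-31063093) lie on the minus strand with 275 bases between them. Mir29b-2 (chr1:195037040-195037120) and Mir29c (chr1:195037547-195037634) lie on the plus strand with 426 bases between them. The mature miR-29b-3p is the same from either locus, so its signal cannot be assigned to one of them. Mir29c is shown whole, in RNA letters with both arms in capitals. It is the one hairpin with both arms well above background on every array.
Mir29c: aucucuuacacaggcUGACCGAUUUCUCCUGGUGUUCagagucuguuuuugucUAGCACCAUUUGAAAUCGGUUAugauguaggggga

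The kidney label was checked against miRNAs known for that organ. All 7 listed kidney miRNAs, among them miR-10a-5p, miR-204-5p and miR-196a-5p, were well above background on all 8 arrays. The neuronal miR-124-3p, the endocrine pancreas miRNA miR-375-3p and 3 of 4 heart and muscle miRNAs were above background on none. The other listed neuronal miRNA, miR-9-5p, was above background on all 8 arrays (5.22 to 5.92), the liver miRNA miR-122-5p on 5 and the muscle miRNA miR-1a-3p on 6. The 4 listed miRNAs of fibroblasts and smooth muscle had a summed scaled signal from 1980 to 2286 in the control and from 1993 to 2520 in the Akita kidneys, and those of the endothelium, 2 miRNAs, from 4753 to 5201 and from 5069 to 6468. Of the 6 leukocyte miRNAs, 5 were called lower in Akita and none higher, against 6.32% lower and 8.42% higher of all tested miRNAs. The 6 summed to between 1075 and 1239 in control and between 737 and 877 in Akita kidneys. MiR-451a of red blood cells ranged from 6.45 to 10.24 on the log2 scale between control kidneys and from 9.19 to 9.60 between Akita kidneys. It was not called (limma, adjusted p = 0.24). The other listed red blood cell miRNA, miR-144-3p, was above background on 3 arrays and not tested. In whole tissue, fewer cells of a type and less RNA per cell cannot be told apart, and the part of cell composition in the miR-29 values was not tested.

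Each member was read by 30 spots per array, spread over 2 to 4 probes. The processed spot intensities were averaged per probe, divided by the array's 75th percentile over the probes measured on all arrays, summed over the probes of a miRNA and put on the log2 scale. A value here is this log2 scaled signal unless stated otherwise. Every log2 fold change was taken as Akita minus control. Signals of different miRNAs come from different probes, so their levels were not set against each other. A miRNA was called changed at an adjusted p under 0.05 in limma's fit, with Benjamini-Hochberg adjustment over the 285 miRNAs above background on all 4 arrays of the control group, of the Akita group or of both.

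The 3p guides and miR-29c-5p were well above background on all 30 spots of all 8 arrays, and none of these 4 differed between Akita and control kidneys past the threshold, against 14.7% of all tested miRNAs (8.42% called higher and 6.32% lower). At an unadjusted p under 0.05, limma gave 1 of the 4 (miR-29b-3p) and 97 of all 285 tested miRNAs. Exact permutation tests gave 0 of the 4. In none of the 4 did the groups separate without overlap, while they did so in 22.8% of the tested miRNAs. The median log2 fold change was 0.04 over the 4 members and 0.06 over all tested miRNAs. The tested miRNAs held 24 higher and 18 lower calls. With control replicates 1 to 4 left out in turn, the 42 calls became 32, 21, 18 and 37. With Akita replicates 1 to 4 left out in turn, they became 20, 25, 21 and 33. The number of members called was 0 in each of these fits.

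MiR-29a-3p, the guide of Mir29a, had nearly the same mean in both groups. Its values were 12.96, 13.03, 12.97 and 12.99 in control replicates 1 to 4 and 13.05, 12.87, 12.98 and 12.98 in Akita replicates 1 to 4. The highest and the lowest value of all 8 were both Akita kidneys, and the groups overlapped. Means were 12.99 ± 0.03 in control and 12.97 ± 0.07 in Akita (SD, n = 4 each). The log2 fold change was -0.02 ± 0.06 SE with a 95% interval from -0.16 to 0.12 (limma, adjusted p = 0.88), so that Akita over control lay between 0.894-fold and 1.09-fold on this scale.

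MiR-29c-3p, the guide of Mir29c, read 12.10, 12.28, 12.19 and 12.18 in the control kidneys and 12.34, 11.99, 12.20 and 12.21 in the Akita kidneys. Akita replicates 1 and 2 lay beyond the control range on opposite sides, and the other Akita values lay inside it. The means of 12.19 ± 0.07 and 12.18 ± 0.15 (SD, n = 4 each) gave a log2 fold change of 0.00 (-0.0045 ± 0.086 SE, 95% interval -0.20 to 0.19, limma adjusted p = 0.99).

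MiR-29b-3p, the guide shared by both loci, read 12.48, 12.65, 12.52 and 12.59 in control and 12.89, 12.59, 12.76 and 12.78 in Akita kidneys. Akita replicates 1, 3 and 4 lay above every control value, and replicate 2 lay within the control range. The means were 12.56 ± 0.07 and 12.75 ± 0.12 (SD, n = 4 each), and the log2 fold change was 0.19 ± 0.08 SE, 1.14-fold, with a 95% interval from 0.01 to 0.37. It did not pass the threshold (limma p = 0.038, adjusted p = 0.13), and the exact two-sided permutation p was 0.0571. The log2 fold change was 0.048 under quantile scaling, 0.11 with the software's total gene signal and 0.12 without Akita replicate 4, and was not called in these fits (limma adjusted p = 0.69, 0.28 and 0.38).

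MiR-29c-5p, the passenger arm of Mir29c, read 6.51, 6.71, 6.66 and 6.62 in control and 6.85, 6.55, 6.70 and 6.75 in Akita kidneys. Akita replicates 1 and 4 lay above the control range and the other 2 within it. Its means were 6.62 ± 0.09 and 6.71 ± 0.13 (SD, n = 4 each), with a log2 fold change of 0.09 ± 0.08 SE and a 95% interval from -0.10 to 0.28 (limma, adjusted p = 0.47).

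**Figure D1:**
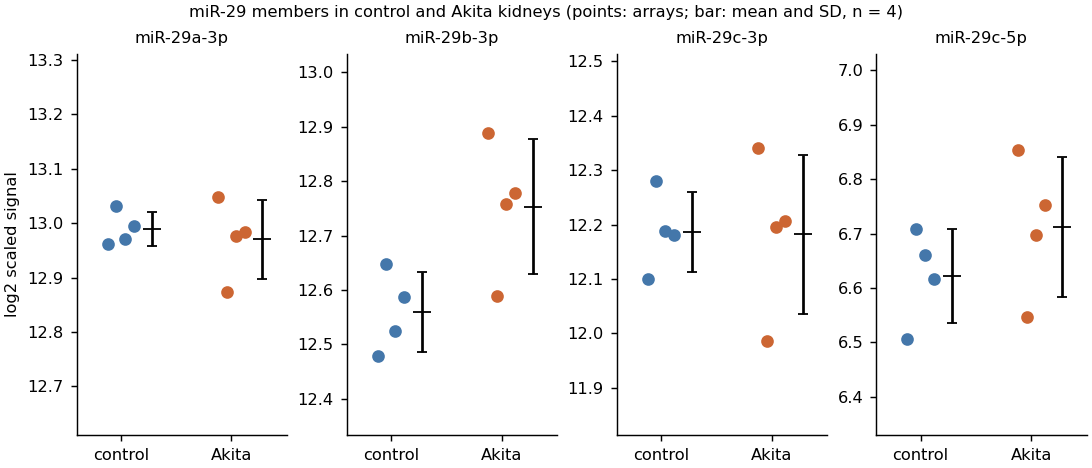
The 4 members above background on all arrays, as log2 scaled signal on the vertical axis, with 1 point per array and the mean with SD beside each group (n = 4); all panels span the same number of log2 units. Control and Akita points overlap in every panel, and 3 of the 4 Akita points of miR-29b-3p lie above all its control points.

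**Figure D2:**
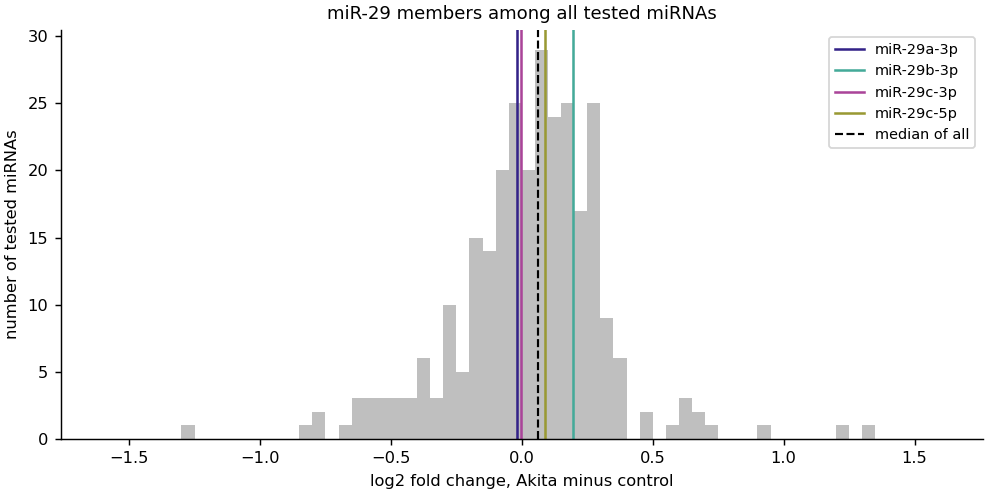
Histogram of the log2 fold changes (horizontal axis, Akita minus control) of the 285 tested miRNAs, with the number of miRNAs on the vertical axis, the members as coloured lines and the median of all as a dashed line. The members lie between -0.02 and 0.19, around the median of 0.06.

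The members ranked the arrays alike within each group. In the Akita kidneys replicate 1 was the highest, followed by replicates 4, 3 and 2, for each of the 4 members. This order held for 8.77% of the tested miRNAs. In the control kidneys replicate 2 was the highest and replicate 1 the lowest for each of the 4, as for 29.8% of the tested miRNAs. Both held together in 15 of the 285, of which 4 were these members. The orders were read from miR-29a-3p in these same data, and the members are counted in each share. The match is therefore a description and not a test. These orders belong to the scaled values. Without scaling, the Akita order was replicates 1, 3, 2 and 4 for each of the 4 members. Control replicate 1 was the lowest for each, with replicate 4 the highest for miR-29a-3p and replicate 2 for the others. The share of all tested miRNAs with these unscaled orders was not computed. Unscaled values also carry the brightness of the array. Its 75th percentile was highest in Akita replicate 1 (446) and lowest in Akita replicate 4 (369), and among controls lowest in replicate 1 (495).

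Ratios between members within an array are the same under every scaling that divides an array by 1 factor, but not under quantile or cyclic loess scaling, which change bright and dim miRNAs by different amounts. In these ratios miR-29b-3p stood higher in Akita kidneys relative to each of the other 3 members. The log2 ratio of miR-29b-3p to miR-29c-3p was 0.38, 0.37, 0.34 and 0.41 in the control kidneys and 0.55, 0.60, 0.56 and 0.57 in the Akita kidneys. Every Akita kidney lay above every control kidney, and the spread within either group was small beside the gap between them. The means were 0.37 ± 0.03 and 0.57 ± 0.02 (SD, n = 4 each), a difference of 0.20 with an interval from 0.14 to 0.27. The intervals of these ratios hold the shifts that the exact permutation test does not reject at 0.05. The exact two-sided permutation p of 0.0286 is the smallest that 4 against 4 can give, and adjusted over the 6 pairs of members it was 0.0429. The call was lost under quantile scaling, where the difference was 0.048 (permutation p = 0.77). It was also lost after adjustment with normexp (adjusted permutation p = 0.0571), the brightest probe (0.0857) and cyclic loess (0.0857), at a difference of 0.19 in each. The unadjusted permutation p stayed at 0.0286 in each, and the adjusted p depends on how many of the 6 pairs reach that minimum.

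The log2 ratio of miR-29a-3p to miR-29b-3p was 0.48, 0.38, 0.45 and 0.41 in control and 0.16, 0.29, 0.22 and 0.20 in Akita kidneys. Here too the groups did not overlap. It was lower in Akita by a difference of -0.21 (means 0.43 ± 0.04 and 0.22 ± 0.05 SD, n = 4 each, interval -0.32 to -0.10, exact permutation p = 0.0286, adjusted over the 6 pairs 0.0429). The same 4 alternatives ended this call, and under quantile scaling the difference was -0.048 (permutation p = 0.69). In the others of these the unadjusted permutation p stayed at 0.0286. The ratio of miR-29b-3p to miR-29c-5p was higher in Akita by 0.10 (interval 0.05 to 0.20) with the same p-values. Its size depended on the processing and was 0.017 with normexp (permutation p = 0.74, also 0.74 adjusted). It was 0.080 with the brightest probe, 0.034 under quantile and 0.16 under cyclic loess scaling, with no call in any of these (adjusted permutation p = 0.129, 1 and 0.229).

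MiR-29a-3p and miR-29c-3p, the guides that differ by 1 base, kept their ratio within the spread between kidneys. The log2 ratio was 0.80 ± 0.05 in control and 0.79 ± 0.07 in Akita (SD, n = 4 each), a difference of -0.01 with an interval from -0.15 to 0.14 (exact permutation p = 0.71). For the arms of Mir29c, the log2 ratio of miR-29c-3p to miR-29c-5p was lower in Akita by a difference of -0.09 (interval -0.15 to -0.03, means 5.56 ± 0.03 and 5.47 ± 0.03 SD, n = 4 each, exact permutation p = 0.0286, adjusted 0.0429). Without Akita replicate 2 it was -0.084 with an adjusted permutation p = 0.0686. It was -0.18 with normexp (adjusted permutation p = 0.0857), -0.11 with the brightest probe (0.114), -0.014 under quantile scaling (1) and -0.029 under cyclic loess (0.971), and was called in none of these. The ratio of miR-29a-3p to miR-29c-5p differed by -0.11 (interval -0.26 to 0.02, exact permutation p = 0.0857, adjusted 0.103), and without Akita replicate 2 by -0.13 (adjusted permutation p = 0.0429). With normexp it differed by -0.19 (adjusted permutation p = 0.0571).

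These ratios were read against all others on the arrays. Of the 6 pairs, which share members with each other, 4 had groups without overlap; among all 40470 pairs of tested miRNAs this held for 26.5%. The median size of the difference over all those pairs was 0.23, above each of the 6 differences between members. A ratio does not say which of its 2 miRNAs changed.

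**Figure D3:**
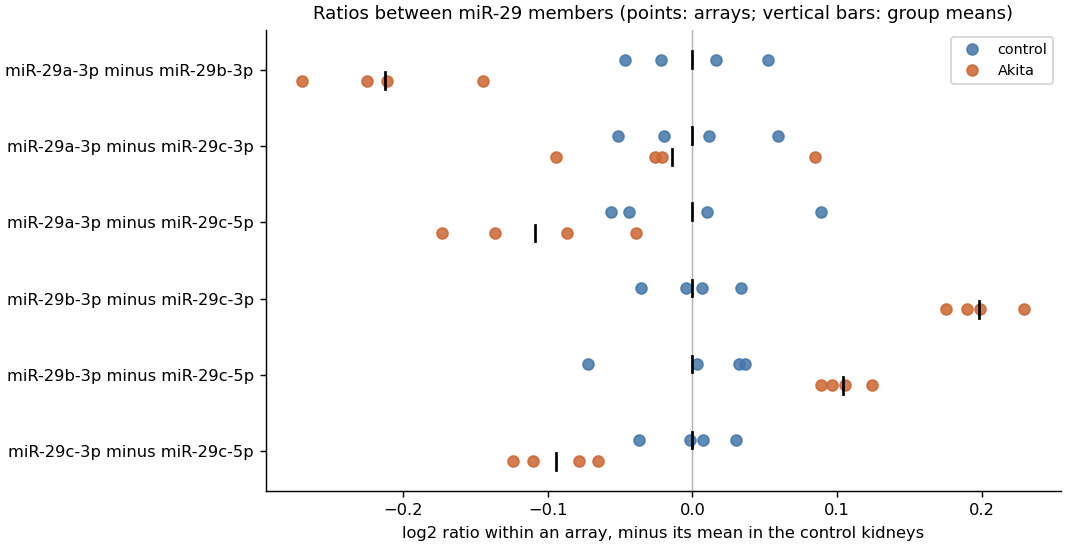
Log2 ratios between members within an array, each shown relative to its mean in the control kidneys on the horizontal axis, with 1 point per array, control above and Akita below in each row, and a vertical bar at each group mean. The Akita points of the ratio of miR-29b-3p to miR-29c-3p lie clear of the control points, and those of miR-29a-3p to miR-29c-3p lie on both sides of them.

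The direction of the members' own fold changes depended on how the arrays were scaled. The Akita arrays were dimmer, with a 75th percentile of measured probes of 420.8 ± 35.2 against 506.7 ± 10.3 in control (SD, n = 4 each, exact permutation p = 0.0286). Without scaling, the summed signal of miR-29a-3p was 8518, 9083, 8793 and 9148 in the control kidneys and 8149, 7041, 7525 and 6437 in the Akita kidneys, with every Akita kidney below every control kidney. Its log2 fold change was then -0.29 ± 0.08 SE (limma, adjusted p = 0.020), and it was the only one of the 4 members called, where 36.5% of the tested miRNAs were called lower. MiR-29c-3p stood at -0.28 (limma, adjusted p = 0.056). With 4 spike-ins as the reference it stood at -0.24 (limma, adjusted p = 0.078). The median of all tested miRNAs was -0.21 without scaling.

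With 4 spike-in RNAs as the reference, miR-29a-3p had a log2 fold change of -0.26 (limma, adjusted p = 0.031) and was again the only member called, against 33% of all tested miRNAs called lower. With the 2 labelling spike-ins alone, a choice added after the data were seen, miR-29a-3p (-0.26, limma adjusted p = 0.016) and miR-29c-3p (-0.25, adjusted p = 0.044) were called lower, against 37.5% of all tested miRNAs. MiR-29b-3p was not called and stood at -0.08 without scaling, at -0.04 with 4 spike-ins and at -0.05 with the labelling spike-ins. Under cyclic loess miR-29b-3p was called higher, at 0.16 (limma, adjusted p = 0.024), where 10.2% of all tested miRNAs were called higher. Against 24 higher and 18 lower calls over all tested miRNAs, there were 5 and 104 without scaling, 5 and 94 with 4 spike-ins, 7 and 107 with the labelling spike-ins, 29 and 41 under cyclic loess, and 10 and 4 where the percentile was taken over every probe. A scaling that divides an array by 1 factor shifts the log2 fold changes of all miRNAs by the same amount. The distance of a member from the median of all tested miRNAs is therefore fixed under such scalings and is no sign of stability. MiR-29b-3p lay 0.13 above that median, miR-29c-5p 0.03 above, and miR-29c-3p and miR-29a-3p at -0.07 and -0.08.

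**Figure D4:**
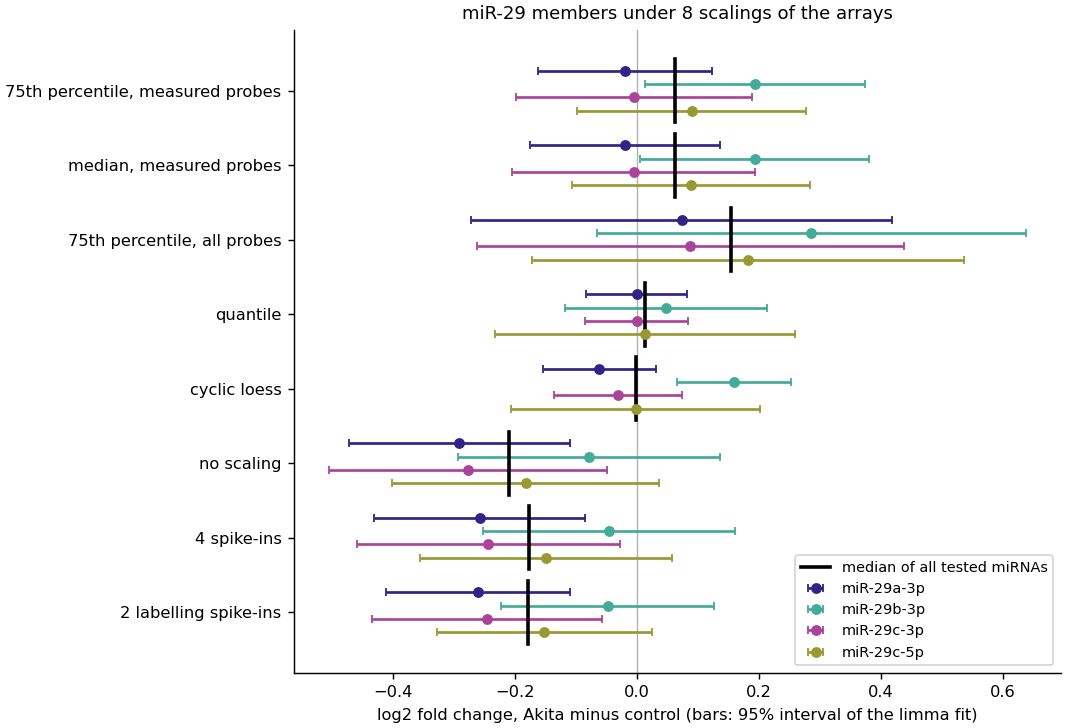
Log2 fold change of the 4 members (horizontal axis, Akita minus control) under 8 ways to scale the arrays (vertical axis), with 95% intervals of the limma fit as bars and the median of all tested miRNAs as a black line. The members move with that median, which runs from -0.21 without scaling to 0.16 with the percentile over all probes, and miR-29b-3p lies to its right in every row.

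The probes of a member gave like changes. Each of the 4 members had 2 probes, which reach from the 3′ end of the miRNA towards its 5′ end and differ by 1 base in length. Those of miR-29a-3p and miR-29c-3p are shown because only 1 base, in capitals, tells these guides apart where the probes overlap.
A_54_P2488 for miR-29a-3p: taaccgatttcaGatggtg
A_54_P2489 for miR-29a-3p: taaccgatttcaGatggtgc
A_54_P2492 for miR-29c-3p: taaccgatttcaAatggtgct
A_54_P2493 for miR-29c-3p: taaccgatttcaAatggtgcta
Laid on the other of these guides, each such probe had 1 mismatch, and the miR-29a-3p probes had 4 mismatches to miR-29b-3p. How far a probe also binds the other guide was not tested.

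Probes of miR-29b-3p were higher in Akita by 0.23 (the shorter, A_54_P1011) and by 0.18 (the longer, A_54_P1012) on the log2 scale, with exact permutation p-values of 0.0286 and 0.0857, which became 0.229 and 0.343 adjusted over the 8 probes. The miR-29a-3p probes had log2 differences of 0.0032 and -0.03 and the miR-29c-3p probes of -0.0028 and -0.0061. The ratio of the longer to the shorter probe differed between the groups by -0.03 for miR-29a-3p, -0.05 for miR-29b-3p, -0.0033 for miR-29c-3p and 0.03 for miR-29c-5p, none past the threshold (exact permutation p from 0.143 to 0.8). Within an array, the spots of a guide's probe had a median coefficient of variation from 2.73% to 3.97%, while the scaled probe means varied by 1.80% to 5.27% between the 4 control arrays and by 4.82% to 9.95% between the 4 Akita arrays. For miR-29c-5p, whose probes were dimmer, the spots varied by 9.81% and 13.2%.

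Of the 5p arms, miR-29c-5p alone was well above background throughout. MiR-29a-5p had 8 of 120 spots well above background in the control group and 10 of 120 in the Akita group, and it counted as above background on 1 array of each, control replicate 2 and Akita replicate 1. MiR-29b-1-5p had 2 of 120 spots above background in control and 0 of 120 in Akita, and miR-29b-2-5p had 0 of 120 in both. These 3 arms were outside the 285 tested miRNAs. The alternative without a filter took in all 1881 miRNAs and all 7 members. It called 6 of the 1881 and 0 members, and with so few calls the 0 says little about the members. No fold is given for these arms. MiR-29b-1-5p and miR-29b-2-5p stood at the minimum value of 4.57 on every array, so that fit could not call them. The longest of 4 probes of miR-29a-5p, A_54_P3463, had a scaled signal of 16.5 ± 2.36 in control and 18.7 ± 1.48 in Akita (SD, n = 4 each). The scanner software flagged miR-29a-5p as detected on all 8 arrays. Its total gene signal there ran from 1.30 to 2.32.

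**Figure D5:**
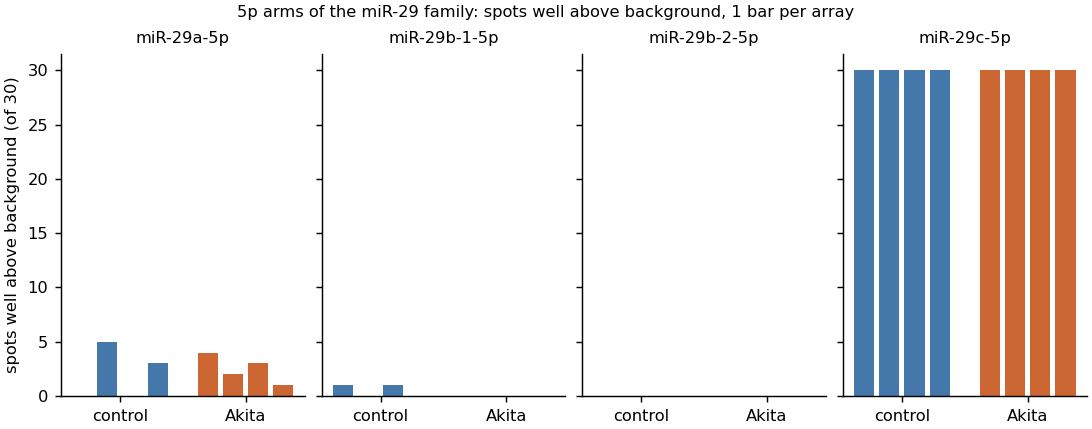
Number of spots well above background, of 30 per array, for the 4 arms from the 5′ side of the hairpins, with 1 bar per array in the order of replicates 1 to 4. MiR-29c-5p reaches 30 on every array, miR-29a-5p at most 5, miR-29b-1-5p at most 1, and miR-29b-2-5p stands at 0.

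The authors' deposited table holds values for these dim arms as well, as linear ratios. In the authors' deposited table miR-29b-1-5p stands at 11.34 and 13.98 in control replicates 1 and 3 and between 0.625 and 1.09 in the other 6 samples. The scanner software gave this arm a total gene signal of 1.33 and 1.61 on those 2 arrays and its fixed minimum of 0.1 on the other 6, and 1 of the 30 spots was well above background on each of the 2. In the authors' deposited table the row of miR-29b-2-5p equals the row of blank spots, as 1448 of 1902 rows do including that of the blanks themselves.

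The miRNAs whose log2 ratio to a member varied least over the 8 arrays were named as its nearest in pattern, as a description. For miR-29a-3p these were miR-23a-3p, miR-423-5p and miR-378b, with an SD of the ratio of 0.03 each, where the median over the 284 other tested miRNAs was 0.17. For miR-29b-3p they were miR-30a-5p (0.04), miR-30a-3p and miR-22-3p (0.05 each), against a median of 0.18. MiR-322-5p (0.03), miR-378b and miR-378d (0.04 each) were nearest to miR-29c-3p, and miR-193a-3p, miR-27b-3p (0.03 each) and miR-98-5p (0.05) to miR-29c-5p. None of these was called between the groups, which largely follows from picking them for a steady ratio to uncalled members over both groups. No member was among the nearest 3 of another: miR-29c-3p and miR-29c-5p, from a single hairpin, ranked 9 in each other's order with an SD of 0.06, while miR-29a-3p and miR-29b-3p ranked 92 and 67 with an SD of 0.12.

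A list of 26 other miRNAs tied to TGF-beta signalling, the matrix or renal fibrosis gave the setting. Of these 18 were tested, 3 were called higher in Akita, 1 lower and 14 not called, with a median log2 fold change of 0.11. Over all tested miRNAs 8.42% were called higher and 6.32% lower, with a median of 0.06. The called ones were the p53-induced miR-34a-5p (1.31 ± 0.09 SE, limma adjusted p = 5.4e-05), the epithelial miR-200c-3p (0.28 ± 0.07 SE, adjusted p = 0.032) and miR-141-3p (0.28 ± 0.08 SE, adjusted p = 0.047), and, lower, miR-19b-3p of the miR-17-92 cluster (-0.28 ± 0.07 SE, adjusted p = 0.034). Among the 14 not called was miR-21a-5p at 0.23 (limma adjusted p = 0.059). Also not called were let-7b-5p at -0.04, miR-26a-5p at -0.06 and miR-30c-5p at 0.12, which are known to act against fibrosis. They were named after their values were seen and do not stand for all miRNAs of that kind. The list, called miRNAs included, was not divided by action for or against fibrosis.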

How the data were processed

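Per the file headers, the deposited spot intensity had a spatial surface subtracted and no scaling between arrays (Agilent Feature Extraction 12.0.3.1). The authors' deposited value table, a linear ratio, equalled the software's total gene signal divided by 1 factor per array and 1 per miRNA; the sources used here do not describe how. Outlier spots (2.03% to 3.02% per array) were left out; 0 spots were saturated. Means of 4415 probes were scaled by the 75th percentile of the 451 that were measured on every array, counting a probe with at least 0.5 of its spots above background. Sums per miRNA below 23.79 (log2 4.57) were raised to it.

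The limma 3.58.1 fit (R 4.3.3; 6 residual, 9.16 total degrees of freedom) was two-sided and was tested on simulated data. Ratios had exact permutation tests over 70 assignments. The number of arrays limits the precision. Same-numbered samples were not treated as pairs. Named by rule were the 7 members, the 3 miRNAs nearest to each tested member in pattern, and the fibrosis list's called and most changed. MiR-21a-5p, let-7b-5p, miR-26a-5p, miR-30c-5p and the example markers were named after their values were seen. Members and lists were chosen with earlier results of these data known. RefSeq sequences are on GRCm38.p6. Alternatives varied scaling, background, probe summary, filter, floor, variance model, block and samples.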

Additional observations from a re-analysis of the deposited data

How the results depend on the processing

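Of 28 alternatives, 24 called no member. There was 1 call without scaling, with 4 spike-ins and under cyclic loess, and 2 with the labelling spike-ins, added after the data were seen. All tested miRNAs gave 14 calls with the percentile over every probe, 109 without scaling, 99 with 4 spike-ins, 114 with the labelling spike-ins, 70 under cyclic loess, 89 with normexp, 9 with the floor 4 times higher, 6 with no filter, 26 with all probes required above background, and from 18 to 37 with 1 array left out.

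The log2 fold change of miR-29a-3p was 0.074 with the percentile over every probe, -0.29 without scaling and -0.26 with either spike-in reference. MiR-29b-3p stood at -0.078 without scaling, -0.045 with 4 spike-ins, -0.047 with the labelling spike-ins, 0.16 under cyclic loess and 0.048 under quantile scaling. MiR-29c-3p stood at 0.088 with the percentile over every probe, -0.28 without scaling, -0.24 with 4 spike-ins and -0.25 with the labelling spike-ins. MiR-29c-5p stood at -0.18 without scaling, -0.15 with either spike-in reference and -0.0020 under cyclic loess. With 1 array left out, miR-29a-3p ran from -0.084 to -0.0058, miR-29b-3p from 0.12 to 0.23, miR-29c-3p from -0.074 to 0.041 and miR-29c-5p from 0.015 to 0.13, and none was called.

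Ratios were run under 18 alternatives, of which quantile and cyclic loess were added after the data were seen. Those of miR-29b-3p to the other guides passed after adjustment in 14 of 18. With normexp the differences were -0.21 (miR-29a-3p to miR-29b-3p), 0.19 (miR-29b-3p to miR-29c-3p), 0.017 (miR-29b-3p to miR-29c-5p) and -0.18 (miR-29c-3p to miR-29c-5p), with the brightest probe -0.21, 0.19, 0.080 and -0.11, under quantile scaling -0.048, 0.048, 0.034 and -0.014, and under cyclic loess -0.22, 0.19, 0.16 and -0.029; none of these passed after adjustment. That of miR-29a-3p to miR-29c-5p passed with the floor 4 times higher (-0.10) and with a pseudocount (-0.092), and was -0.19 with normexp, -0.014 under quantile scaling and -0.059 under cyclic loess, not passing there. With 1 array left out it ran from -0.13 to -0.079, miR-29a-3p to miR-29c-3p from -0.047 to 0.013, and miR-29c-3p to miR-29c-5p from -0.11 to -0.084. The cause of these shifts was not tested.

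With the replicate number as a block (replicate block) there were 25 calls, 11 higher and 14 lower, and 0 members. Deviations of same-numbered samples correlated at 0.10, -0.30, 0.34 and -0.35, and no sample correlated best with its own number. The 3 dim arms have the least signal over background and were tested only where no filter was set. None was called there, where 6 of all 1881 miRNAs were called. MiR-29b-1-5p and miR-29b-2-5p stood at the floor on every array and could not be called.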
